A study of Gallus gallus with 5 samples.

Results

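CAPN1, CAPN2 and GSN encode the large subunits of the calcium-activated proteases μ-calpain and m-calpain, and gelsolin, a calcium-dependent protein that severs and caps actin filaments. The 3 genes were chosen by name, with earlier results of the same data known: all of them had been seen to be at least 2-fold higher in blastoderms stored at 24 °C than in unstored blastoderms, within a list of genes of late apoptosis. Their values at 24 °C against unstored are therefore given as a description. The other comparisons with the unstored library, or with that at 24 °C, share a library with this choice. Their values and ranks are thus not independent of it. All 3 genes had their lowest level in the unstored library. They are 3 of 10102 genes that received a symbol, and all 3 were among the 7733 with FPKM of at least 1 in at least 1 library. FPKM are fragments scaled by transcript length and by mapped fragments.

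The series profiled the polyadenylated RNA of the chicken blastoderm, the sheet of early embryonic cells in a freshly laid egg, which pauses its development when the egg is kept cool. The libraries came from blastoderms kept for 7 days at a storage temperature of 4, 16 or 24 °C, from blastoderms after incubation at 37 °C for 4 h, and from blastoderms that were not stored. Not given in the sources used here are the strain, the breeder age and the number of blastoderms pooled. Each condition had 1 library, so no difference below has a replicate check, and no p-value, standard deviation or standard error is given.

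FPKM over all rows summed to between 333528 and 389061 in a library, and the depth behind a value is unknown. The epiblast marker NANOG had FPKM between 223.18 and 525.52, and the hemoglobin genes on the list of blood markers, with FPKM of at most 0.30, were at or near 0 in every library. Differences are of log2(FPKM + 1), which understates the change of a gene with a low level, and a difference of 1 or more is called at least 2-fold. The median difference of all genes from the unstored library was 0.12 for the incubated library, and 0.10, -0.04 and 0.04 for storage at 4, 16 and 24 °C.

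As background, a classical calpain joins a catalytic large subunit to a shared small subunit, opens its active site when it binds calcium, and is held back by the inhibitor calpastatin. Calpains cut selected proteins at a few sites, among them proteins that tie actin filaments to adhesions and to the membrane, and they act in cell migration and in some forms of cell death. Gelsolin is opened by calcium as well. Transcript levels do not measure the activity of any of these proteins, which calcium and cleavage control.

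CAPN1 was high in the incubated library and in the library stored at 24 °C. It had FPKM 10.86, 6.99 and 20.55 after storage at 4, 16 and 24 °C and 27.16 after incubation, against 5.48 unstored. The order of its levels was unstored, 16 °C, 4 °C, 24 °C and incubated, so it did not follow the storage temperature. With no replicates, the spread that would separate neighbours in this order is unknown.

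The CAPN1 value of the incubated library was 4.96 times that of the unstored library, a difference of 2.12 on the log2(FPKM + 1) scale. Only 27 of 7700 genes, CAPN1 included, had a difference as high, and 8.48% of these genes were at least 2-fold higher. Like those at 4 and 16 °C against unstored, this comparison shares the unstored library with the choice of the gene. At 4 °C against unstored the difference was 0.87, short of 2-fold, yet only 91 of 7697 genes had one as high, in a comparison where 0.637% were at least 2-fold higher. The ranks after incubation and at 4 °C are those of the 3 CAPN1 rows summed. In both comparisons each single row had a smaller difference than the sum. At 16 °C the difference of the sum was 0.30, a value that 2349 of 7689 genes reached. At 24 °C, the contrast on which the gene was chosen, it was 1.73. CAPN1 was also lower in the stored than in the incubated library by at least 2-fold after storage at 4 °C (-1.25), where 4.73% of genes were, and after storage at 16 °C (-1.82), where 14.3% were. Against the incubated library the value at 24 °C was -0.39 for CAPN1, 1.32 for CAPN2 and 0.43 for GSN, in a comparison where 5.4% of 7702 genes were at least 2-fold higher.

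CAPN2 was low in all libraries, and its highest level was at 24 °C. It had FPKM 0.65, 2.34 and 5.55 after storage at 4, 16 and 24 °C and 1.62 after incubation, against 0.58 unstored. Its levels thus rank as unstored, 4 °C, incubated, 16 °C and 24 °C, with the unstored library and that at 4 °C nearly equal. In the unstored library 5.66% of the 7733 genes were below it, and at 24 °C 31.9% were. As CAPN2 was below FPKM 1 unstored and at 4 °C, it passed the filter only through the libraries where it was higher.

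For CAPN2 the ratio of FPKM at 16 °C to unstored was 4.03, but the difference on the log2(FPKM + 1) scale was 1.08, as the added constant of 1 weighs on a low level. A difference of that size or more was seen in 478 of 7689 genes, and 7.65% of genes were at least 2-fold higher in this comparison. In the incubated library against the unstored library the difference was 0.73, with an FPKM ratio of 2.79, so its place relative to the 2-fold line there depends on the added constant. At 4 °C the difference was 0.06. At 24 °C, the contrast of the choice, the FPKM ratio was 9.57 and the difference 2.05. With a constant of 5 in place of 1 the differences at 16 and 24 °C were 0.40 and 0.92, both short of 2-fold.

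GSN had the highest FPKM, a value per transcript length, of the 3 genes in every library, and its levels differed least in proportion. It had FPKM 25.54, 42.47 and 54.77 after storage at 4, 16 and 24 °C and 40.28 after incubation, against 25.13 unstored. Its levels had the same order as those of CAPN2, and the highest was 2.18 times the lowest. The unstored library and that at 4 °C were again nearly equal, and so were the incubated library and that at 16 °C.

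The differences of GSN from the unstored library were 0.66 after incubation and 0.02 and 0.73 after storage at 4 and 16 °C, none of them 2-fold. At 16 °C 1010 of 7689 genes had a difference as high, and in the incubated library 1456 of 7700 did. The value at 4 °C was -0.09 with median-ratio size factors and -0.06 with FPKM rescaled to equal sums. At 24 °C, the contrast of the choice, the difference was 1.09, just above the 2-fold line, in a comparison where 10.5% of 7690 genes were at least 2-fold higher. In that comparison 660 genes, GSN included, had a difference of at least 1.09.

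**Figure D1:**
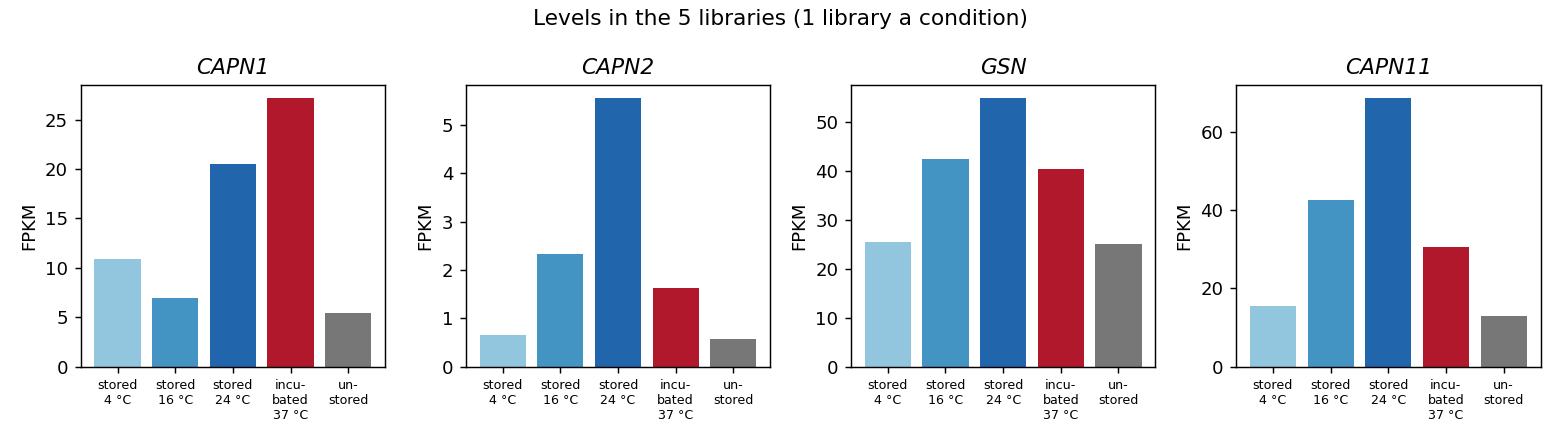
FPKM (linear axis from 0) of CAPN1, CAPN2, GSN and the related calpain CAPN11 in the 5 libraries, 1 bar a library and so no error bars. CAPN1 is highest in the incubated library (27.16), and the other genes are highest at 24 °C.

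**Figure D2:**
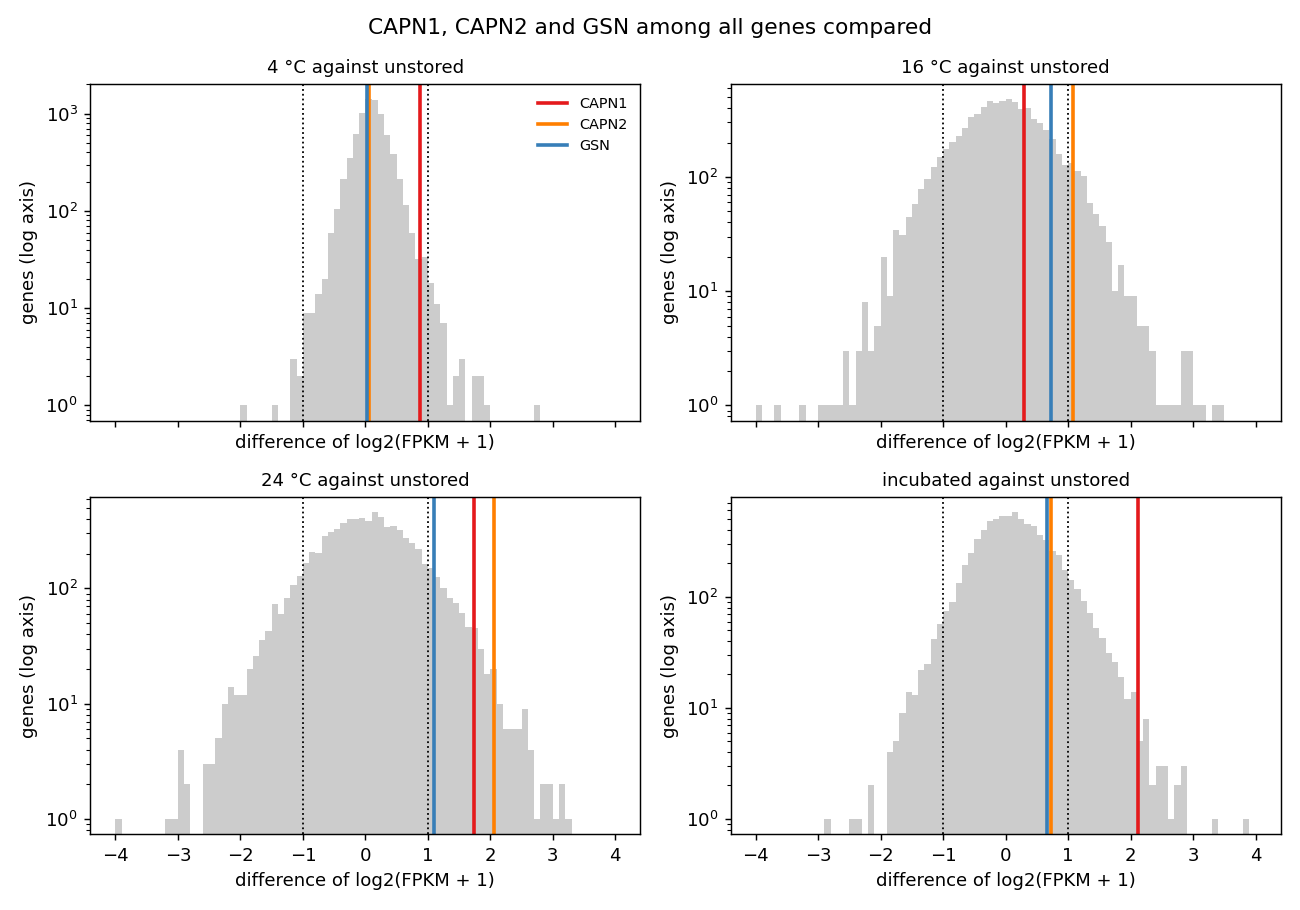
Histograms of the difference of log2(FPKM + 1) from the unstored library over all genes compared, with the number of genes on a log axis, differences beyond 4 drawn at 4, coloured lines at CAPN1, CAPN2 and GSN, and dotted lines at 2-fold. CAPN1 lies far to the right in the incubated library (2.12) and at 4 °C (0.87), and CAPN2 and GSN lie near the middle at 4 °C (0.06 and 0.02).

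The storage temperatures were also set against each other, to describe the genes across the storage conditions. The comparisons share libraries with those above and add no independent measurement. Those with the library at 24 °C also share it with the choice of the genes, so their values are given as a description. At 16 °C against 4 °C CAPN2 had a difference of 1.02, GSN of 0.71 and CAPN1 of -0.57, where 7.27% of 7689 genes were at least 2-fold higher. At 24 °C against 16 °C CAPN1 had 1.43, CAPN2 0.97 and GSN 0.36, where 2.83% of 7693 genes were at least 2-fold higher. At 24 °C against 4 °C CAPN2 had 1.99, GSN 1.07 and CAPN1 0.86, and 9.52% of 7690 genes were at least 2-fold higher.

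The difference of CAPN2 from the unstored library less that of CAPN1 was -0.81, 0.78 and 0.32 after storage at 4, 16 and 24 °C and -1.39 after incubation. Its size depended on the constant added to FPKM. With 0.1 in place of 1 it was -0.83, 1.50 and 1.17 after storage at these temperatures and -0.95 after incubation, and with 5 it was -0.58, 0.20 and -0.37 after storage and -1.37 after incubation, so the sign at 24 °C changed. The ratio of CAPN1 to CAPN2 in FPKM, a value per transcript length, was 16.7, 2.99 and 3.70 after storage at 4, 16 and 24 °C and 16.8 after incubation, against 9.45 unstored. With its 3 rows summed, CAPN1 was thus above CAPN2 in every library, and their ratio was lowest at 16 and 24 °C. Not every single CAPN1 row was above CAPN2. At 16 °C the rows with FPKM 1.17 and 2.31 were below CAPN2 (2.34). At 24 °C the row with 2.44 was below CAPN2 (5.55).

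CAPN1 rests on 3 rows of the deposited files, all with the accession NM_001044672.1, while CAPN2 (NM_205080.1) and GSN (NM_204934.1) have 1 row each. The files list 51 accessions in more than 1 row and do not say how such rows differ, so the sum is uncertain as a level. The row with the highest values had FPKM 5.19, 3.51 and 11.31 after storage at 4, 16 and 24 °C and 13.86 after incubation, against 2.74 unstored. The row with the lowest had 2.18, 1.17 and 2.44 after storage at 4, 16 and 24 °C and 5.33 after incubation, against 1.25 unstored. The third had 3.49, 2.31 and 6.80 after storage at 4, 16 and 24 °C and 7.97 after incubation, against 1.49 unstored.

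Each of the 3 CAPN1 rows had its highest level in the incubated library, at least 2-fold above the unstored library, with differences of 1.49, 1.85 and 1.99. At 24 °C 2 rows had differences of 1.65 and 1.72, and the lowest row had 0.61 and was not 2-fold higher. At 16 °C the rows had -0.05, 0.41 and 0.27, so the direction there differed between rows. At 4 °C they had 0.50, 0.85 and 0.73, each below the 0.87 of their sum. The differences of the rows after incubation were likewise below the 2.12 of the sum. The ranks of CAPN1 in these 2 comparisons thus depend on summing the rows.

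**Figure D3:**
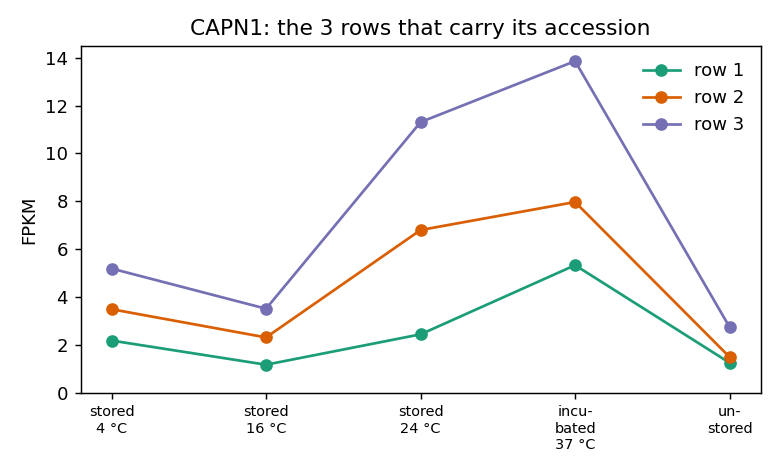
FPKM of the 3 rows that carry the CAPN1 accession, 1 point a library, joined by lines for reading only. All 3 rows are highest in the incubated library (5.33, 7.97 and 13.86), and at 24 °C row 1 (2.44) stays nearer its unstored level (1.25) than the other rows do.

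Of 14 calpain large subunits listed, 11 were matched to a row and 6 had FPKM of at least 1 in at least 1 library. The most abundant was CAPN11, in chicken also known as μ/m-calpain, a close relative of CAPN1 and CAPN2. It had FPKM 15.45, 42.51 and 68.60 after storage at 4, 16 and 24 °C and 30.61 after incubation, against 12.87 unstored. Its differences from the unstored library were 1.19 after incubation and 0.25, 1.65 and 2.33 after storage at 4, 16 and 24 °C. CAPN11 levels had the same order as those of CAPN2 and GSN. At 24 °C against unstored, 34 of 7690 genes, CAPN11 included, had a difference as high. That is the contrast on which CAPN1, CAPN2 and GSN were chosen, so this rank is given as a description. These calpains are related in sequence, and how reads that they share were divided between them was not tested.

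Together CAPN1, CAPN2 and CAPN11 had FPKM 27.0, 51.8 and 94.7 after storage at 4, 16 and 24 °C and 59.4 after incubation, against 18.9 unstored. CAPN1 held 40.3%, 13.5% and 21.7% of this sum after storage at 4, 16 and 24 °C and 45.7% after incubation, against 28.9% unstored. CAPN2 held between 2.41% and 5.86%. All these shares depend on summing the 3 CAPN1 rows.

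Of the other calpains, CAPN5 had FPKM 2.31, 1.97 and 2.78 after storage at 4, 16 and 24 °C and 4.39 after incubation, against 1.11 unstored, with its difference at least 2-fold in the incubated library (1.35). CAPN7 had 6.04, 8.83 and 10.39 after storage at these temperatures and 6.70 after incubation, against 5.41 unstored, and CAPN6, which lacks the catalytic cysteine in mammals, had 1.19, 1.11 and 1.02 after storage at these temperatures and 0.49 after incubation, against 1.11 unstored. CAPN3, CAPN8, CAPN9, CAPN13 and CAPN15 stayed below FPKM 1 in all libraries. At least 2-fold higher than the unstored library were 3 of the 6 measured large subunits after incubation, and 0, 2 and 3 of them after storage at 4, 16 and 24 °C, and 0 were lower in any of these. Over all genes the shares past 2-fold in the same comparisons were 8.48%, 0.637%, 7.65% and 10.5% upward and 2.53%, 0.0909%, 8.75% and 8.35% downward. The 3 at 24 °C were CAPN1, CAPN2 and CAPN11. CAPN1 and CAPN2 were chosen on that contrast, so the count and the median there are given as a description. CAPN2 was below FPKM 1 unstored (0.58) and at 4 °C (0.65), so it passed the filter only through libraries where it was higher. It is in the higher counts at 16 and 24 °C. The median of the 6 was 0.96 after incubation and 0.19, 0.56 and 1.29 after storage at 4, 16 and 24 °C. With a constant of 5 it was 0.43 after incubation, 0.29 at 16 °C and 0.74 at 24 °C, with all genes kept it was 0.84 at 24 °C, and with median-ratio size factors it was 0.083 at 4 °C.

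The small subunit gene CAPNS2 had FPKM 0.89 in the incubated library and between 0.10 and 0.29 in the others. The other small subunit, CAPNS1, and calpastatin (CAST) were not analysed here, as no row was matched to them.

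Of 8 genes of the gelsolin and villin family listed, 6 were matched and 5 passed the filter. Scinderin (SCIN), which like gelsolin severs actin in response to calcium, was lower than in the unstored library in the 3 libraries where GSN was higher by more than 0.1. It had FPKM 13.37, 2.52 and 3.74 after storage at 4, 16 and 24 °C and 3.13 after incubation, against 12.37 unstored. Its differences from the unstored library were -1.69 after incubation and 0.10, -1.93 and -1.50 after storage at 4, 16 and 24 °C. GSN was thus above SCIN in each library, and by more in the 3 libraries where SCIN was at least 2-fold lower.

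Villin-like (VILL) had FPKM 5.94, 1.43 and 2.93 after storage at 4, 16 and 24 °C and 8.66 after incubation, against 6.48 unstored, and was at least 2-fold lower at 16 °C (-1.62). Villin (VIL1), an actin bundling protein of microvilli, had FPKM of at most 1.18. As VIL1 was below FPKM 1 unstored (0.14), at 4 °C (0.18) and after incubation (0.59), it passed the filter only through libraries where it was higher. These were the libraries at 16 °C (1.18) and 24 °C (1.13), and the family medians below include it. FLII, a relative of gelsolin with leucine-rich repeats, had FPKM between 25.84 and 39.36 and no 2-fold difference, and SVIL stayed at or below 0.10. With SCIN and VILL, 1, 2 and 1 of 5 measured genes were at least 2-fold lower after incubation and at 16 and 24 °C. Over all genes 2.53%, 8.75% and 8.35% were lower there. The only gene higher was GSN at 24 °C, the contrast of its choice, where 10.5% of all genes were. The family median was 0.38 in the incubated library, and 0.05, 0.59 and 0.37 at 4, 16 and 24 °C. With median-ratio size factors it was -0.01 at 4 °C, and with only genes of mean FPKM of at least 5 it was -0.52 at 16 °C and -0.28 at 24 °C, as VIL1 then drops out.

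**Figure D4:**
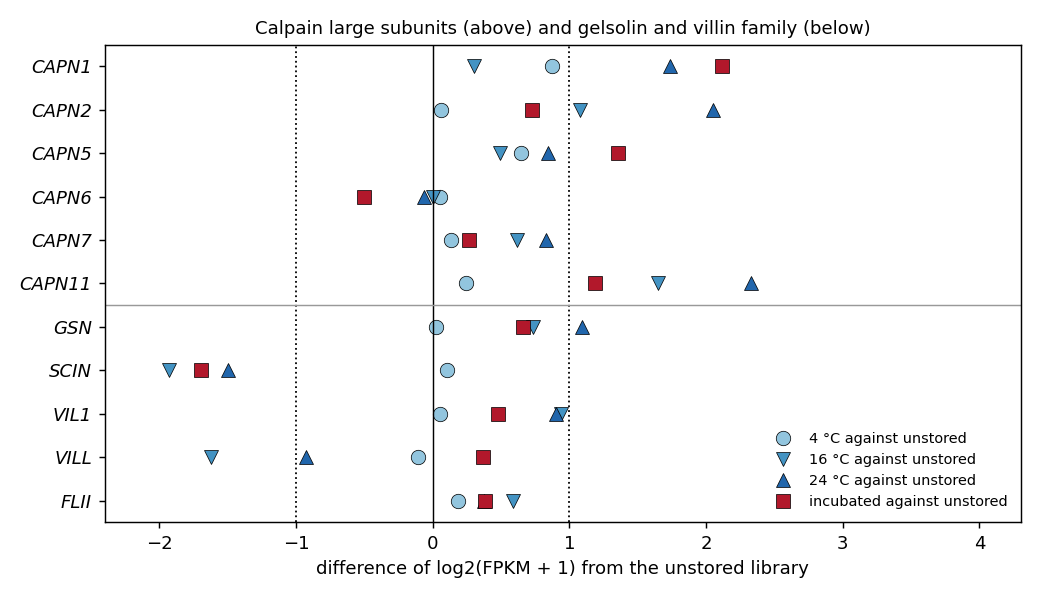
Difference of log2(FPKM + 1) from the unstored library for the 6 measured calpain large subunits (above the line) and the 5 measured genes of the gelsolin and villin family (below), 1 symbol a comparison, with dotted lines at 2-fold. CAPN1, CAPN2 and CAPN11 reach 1.73, 2.05 and 2.33 at 24 °C, GSN reaches 1.09 there, and SCIN lies at -1.93 at 16 °C.

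Of 15 measured transcripts of proteins that calpains cut, 1 was at least 2-fold higher after incubation, and 0, 1 and 1 after storage at 4, 16 and 24 °C, and the only gene at least 2-fold lower was CTNNB1 at 24 °C (-1.50). Over all genes 8.48% were higher after incubation, and 0.637%, 7.65% and 10.5% after storage at these temperatures, and 8.35% were lower at 24 °C, so a single gene of 15 (6.67%) is near the share of all genes in the comparisons where it was counted. The higher gene was VCL each time, vinculin, which links adhesions to actin, with FPKM 22.09, 38.77 and 38.43 after storage at 4, 16 and 24 °C and 53.39 after incubation, against 17.18 unstored. CTNNB1, β-catenin, had FPKM 1010.81, 504.86 and 349.02 after storage at these temperatures and 501.06 after incubation, against 989.57 unstored. Talin 1 (TLN1), a classical calpain substrate, lay between 28.41 and 41.63. The list median was -0.09 in the incubated library, and 0.17, -0.15 and -0.05 at 4, 16 and 24 °C, and the last was 0.08 with FPKM rescaled to equal sums.

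Of 28 measured genes of actin filament turnover and capping, 2 passed the 2-fold line upward and 1 downward after incubation, none at 4 °C, 1 upward and 5 downward at 16 °C, and 1 upward and 2 downward at 24 °C. As shares of the list these were 3.57% upward and 17.9% downward at 16 °C and 3.57% upward and 7.14% downward at 24 °C, where all genes had 7.65% and 8.75%, and 10.5% and 8.35%. After incubation the list had 7.14% upward and 3.57% downward, near the 8.48% and 2.53% of all genes. TMOD1, which caps the pointed ends of actin filaments, had FPKM 53.67, 11.36 and 5.43 after storage at 4, 16 and 24 °C and 13.22 after incubation, against 49.79 unstored. LIMK1, a kinase that inactivates cofilin, was higher at 16 °C (1.13) and 24 °C (1.20), and PFN2, a profilin, was lower at both (-1.18 and -1.26). LIMK2, also on the list, was lower at 16 °C (-1.19), had -0.15 at 24 °C and was higher after incubation (1.37). The list median was 0.14 in the incubated library, and 0.13, -0.11 and -0.02 at 4, 16 and 24 °C. With FPKM rescaled to equal sums the values at 16 and 24 °C were 0.02 and 0.11.

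Among 15 measured genes of calcium entry, stores and pumps, 0 passed the 2-fold line at 4 °C, 1 passed it upward and 1 downward at 16 °C, 2 upward and 1 downward at 24 °C, and 1 upward after incubation. With 1 gene of 15 at 6.67% and 2 at 13.3%, these counts are near the shares of all genes, which were 7.65% upward and 8.75% downward at 16 °C, 10.5% and 8.35% at 24 °C, and 8.48% upward after incubation. ITPR3, a calcium release channel of the endoplasmic reticulum, had FPKM 2.81, 6.40 and 13.29 after storage at 4, 16 and 24 °C and 11.61 after incubation, against 2.40 unstored. ATP2B1, which pumps calcium out of the cell, had 344.91, 101.47 and 104.18 after storage at these temperatures and 203.43 after incubation, against 294.34 unstored.

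Annexins and S100 proteins, which also bind calcium, split at 24 °C, with 3 of 8 measured genes at least 2-fold higher and 2 lower, where 10.5% of all genes were higher and 8.35% lower. S100A6 (2.06), ANXA11 (1.87) and S100A11 (1.44) were higher, and ANXA2 (-1.70) and ANXA6 (-1.49) were lower. At 16 °C, where 8.75% of all genes were lower, the only such gene was ANXA2 (-1.61), and after incubation and at 4 °C there were 0. Of 6 measured caspases, CASP2 was at least 2-fold higher in the incubated library (1.46), as were 8.48% of all genes, and no other value passed the line.

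Marker genes of several cell types differed between the same libraries, and in bulk RNA fewer cells of a type and less RNA per cell cannot be told apart. Of 10 hypoblast or endoderm markers listed, 8 were matched and 7 measured, and of these 5 exceeded the unstored library by 2-fold or more after incubation, and 6, 1 and 4 after storage at 4, 16 and 24 °C. GATA5 was at least 2-fold lower at 16 °C (-1.34) and 24 °C (-1.19), so the calls at 16 °C were 1 in each direction. CER1 and HNF4A were below FPKM 1 unstored (0.24 and 0.83), so they passed the filter only through libraries where they were higher. Both are in the higher counts after incubation and at 4 and 24 °C. All genes had 8.48% higher after incubation, 0.637%, 7.65% and 10.5% higher after storage at these temperatures, and 8.75% lower at 16 °C and 8.35% at 24 °C. The matched markers had a summed FPKM of 175, 153 and 264 after storage at 4, 16 and 24 °C and 216 after incubation, against 80.0 unstored. APOA1, an apolipoprotein, alone held 46.62, 113.11 and 198.45 of this sum after storage at these temperatures and 103.35 after incubation, against 21.38 unstored. Without APOA1 the sum was 128, 40.2 and 65.2 after storage at these temperatures and 113 after incubation, against 58.6 unstored, so it was highest at 4 °C and near the unstored level at 24 °C. Among the stored libraries CAPN1 was lowest at 16 °C and highest at 24 °C (FPKM 20.55, against 10.86 at 4 °C). The full sum had the same order in these libraries, and the sum without APOA1 did not. Across all libraries the orders differed, as CAPN1 was highest after incubation (27.16) and the full sum at 24 °C (264). Nor was the order among stored libraries particular to this list. The sum of the epithelial list shared it, with 336, 332 and 770 at 4, 16 and 24 °C. A link between CAPN1 and these markers was not tested. TTR, also on this list, was at or near 0, with FPKM of at most 0.19.

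Of 6 measured epiblast markers (7 of 8 matched), 4 were at least 2-fold lower after storage at 16 °C and likewise 4 after storage at 24 °C, where 8.75% and 8.35% of all genes were. The matched ones had a summed FPKM of 1819, 1022 and 839 after storage at 4, 16 and 24 °C and 1258 after incubation, against 1838 unstored. SOX2 of this list was at most 0.33. Among epithelial markers (5 of 8 matched), 1 of 4 measured, KRT7, was at least 2-fold higher at 24 °C (1.84), where 10.5% of all genes were. The epithelial list summed to 336, 332 and 770 after storage at these temperatures and 436 after incubation, against 300.2 unstored. Without KRT7 it summed to 110, 111 and 97.7 after storage at these temperatures and 96.7 after incubation, against 114 unstored. Of the blood and leukocyte list of 10, 7 of 9 matched genes stayed below FPKM 1, while LCP1, an actin bundling protein of leukocytes, had 1.24, 18.50 and 21.08 after storage at these temperatures and 6.57 after incubation, against 1.79 unstored. The list summed to 2.49, 20.6 and 22.8 after storage at these temperatures and 8.23 after incubation, against 2.60 unstored. Without LCP1 it summed to 1.25, 2.11 and 1.72 after storage at these temperatures and 1.66 after incubation, against 0.81 unstored. The muscle and fibroblast list (7 of 9 matched) summed to 35.5, 15.7 and 24.6 after storage at these temperatures and 53.6 after incubation, against 25.6 unstored, with 1 of 3 measured genes higher in the incubated library (COL1A2, 2.07) and 1 lower at 16 °C (MYL9, -1.03), where 8.48% and 8.75% of all genes were. The part of these cell types in the values of CAPN1, CAPN2 and GSN was not tested.

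The genes most like each member in their differences from the unstored library were sought among 5986 named genes with FPKM of at least 5 in 1 library and above 0 in all. Likeness was the root mean square distance over the 4 differences, a description that shares the unstored library throughout. For CAPN1 the nearest were EGFLAM, an extracellular matrix protein (distance 0.16), FAM46C (0.25), APOA2, an apolipoprotein (0.27), AGPAT2, an acyltransferase of lipid synthesis (0.28), and DNAAF9 (0.29). EGFLAM had FPKM 4.68, 3.62 and 13.09 after storage at 4, 16 and 24 °C and 14.09 after incubation, against 2.61 unstored.

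For CAPN2 the nearest were NR3C2, the mineralocorticoid receptor (0.14), AAMDC (0.15), N4BP2L1 (0.16), MPST, a sulfurtransferase (0.17), and TNNC1, a troponin C (0.17). For GSN they were WBSCR27 (0.03), UAP1L1 (0.04), SMAD3, a transducer of TGF-beta signals (0.05), MYO5A, a myosin motor (0.06), and FAM149B1 (0.07). The members were not each other's nearest genes. From CAPN2, GSN lay at 0.51 with 291 genes nearer, CAPN11 at 0.40 with 134 nearer, and CAPN1 at 0.91 with 1280 nearer. From GSN, CAPN2 had 1223 genes nearer, CAPN11 2950 and CAPN1 3535. From CAPN1, CAPN2 had 472 genes nearer, CAPN11 516 and GSN 527.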

How the data were processed

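The authors deposited FPKM for each RefSeq accession, per the file headers, with 1 file a library. The submitters' processing notes name the build galGal4, TopHat2 2.0.8 and Cufflinks 2.0.2, with no role given. The labels' protocols describe poly(A) selection, TruSeq libraries and paired Illumina reads. Not given in the sources used here are the annotation and whether libraries were scaled to each other. The FPKM values carry 2 decimals and depend on a model that divides reads between transcripts, so depth and counting error are unknown.

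Of 32188 rows, 12609 (39.2%) received a symbol by matching the accession without its version to a RefSeq table of GRCg7b, and only current symbols were used for the lists. No coordinates of that table were used, as the builds differ, and no sequences are shown. Rows sharing a symbol were summed. Isoforms whose accession was not matched are left out of a gene's value.

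Differences are of log2(FPKM + 1), in Python 3.11.15 with pandas 2.3.3. Genes with FPKM of at least 1 in at least 1 library, and above 0 in both libraries, were compared. With 1 library a condition no test was made. The members, the 13 gene lists and the rules were chosen with earlier results of these data known. Named were the members, all measured calpains and gelsolin relatives, genes of the other lists at least 2-fold different from unstored in at least 1 library (up to 6 a list, not all shown), and the 5 genes most like each member. TLN1, SOX2 and TTR were named outside this rule, with their values seen, and some list members are not reported here. Alternatives were adding 0.1 or 5 in place of 1, scaling by median-ratio size factors or to a sum of 1000000, keeping all genes or those with a mean FPKM of at least 5, and taking a gene's highest row. The mean and the lowest row for CAPN1, marker sums without their most abundant gene, and the gap between CAPN2 and CAPN1 under other constants were added after seeing the data.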

Additional observations from a re-analysis of the deposited data

How the results depend on the processing

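No paired analysis was possible because each condition had 1 library. Over the 4 comparisons with the unstored library, 55 of 60 values of CAPN1, CAPN2 and GSN under other settings stayed on their side of the 2-fold line. CAPN2 and GSN have 1 row each, so taking the highest row could not change their values, and these are part of the 55. So are their values at 4 °C, all far from the 2-fold line. Settings that only change which genes are kept leave a gene's own value as it is, and are not among the 60. With a constant of 5, CAPN2 was 0.92 and GSN 0.99 at 24 °C, and CAPN2 was 0.40 at 16 °C, all short of 2-fold. CAPN2 in the incubated library was past 2-fold with a constant of 0.1 (1.34) and with FPKM rescaled to 1000000 (1.09), both of which give low values more weight. In the alternatives added later, the lowest CAPN1 row was 0.61 at 24 °C, and the other 7 of 8 values stayed on their side. Differences of CAPN2 are limited by its low FPKM, whose depth is unknown, and all differences by 1 library a condition.

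Counts of all genes at least 2-fold different moved more. At 24 °C 805 genes were higher and 642 lower, against 260 and 338 with a constant of 5, 1295 higher with rescaled FPKM and 464 higher at a mean FPKM of at least 5. At 16 °C 588 were higher and 673 lower, against 952 higher with a constant of 0.1, 160 and 312 with 5, 992 higher with rescaled FPKM and 358 higher at a mean of at least 5. At 4 °C 49 were higher and 7 lower, against 174 and 59 with 0.1, 6 and 0 with 5, 31 and 12 with median-ratio size factors, 77 and 31 with rescaled FPKM, and 27 and 1 at a mean of at least 5. In the incubated library 653 were higher and 195 lower, against 1096 and 362 with 0.1, 160 and 68 with 5, 969 higher with rescaled FPKM and 337 higher at a mean of at least 5. The share of higher genes among those called moved from 77.0% to 64.6% in the incubated library and from 87.5% to 72.1% at 4 °C with median-ratio size factors. With rescaled FPKM it was 60.5% in place of 46.6% at 16 °C, 67.0% in place of 55.6% at 24 °C and 71.3% at 4 °C. The cause of these shifts was not tested.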
